A study of Homo sapiens with 3 samples.

Results

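The 10 genes described here encode the cellular route that makes, desaturates and elongates fatty acids, together with its main transcriptional regulator. They were taken by symbol from the table of normalized counts: SREBF1, ACLY, ACSS2, ACACA, FASN, SCD, FADS1, FADS2, ELOVL5 and ELOVL6. All 10 were found among 17329 gene rows, and all 10 were among the 12292 genes that averaged 50 or more normalized counts over the libraries (the floor used below).

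Fatty acid synthesis starts from cytosolic acetyl-CoA, which ATP citrate lyase (ACLY) makes from citrate and acetyl-CoA synthetase (ACSS2) makes from acetate. Acetyl-CoA carboxylase (ACACA) turns it into malonyl-CoA, and fatty acid synthase (FASN) builds palmitate from both. Elongases lengthen the chain and desaturases put double bonds into it, either in fatty acids made by the cell or in essential ones taken from the medium. The transcription factor encoded by SREBF1 is held in the endoplasmic reticulum as a precursor and, once cleaved, activates genes of the whole route, so its mRNA is not a measure of its activity. Proliferating leukaemia cells use these lipids for their membranes.

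The cells were Jurkat, a human line of T-lineage acute lymphoblastic leukaemia, kept in RPMI medium with 10% FBS. The oxamate+lactate culture received 50 mM sodium oxamate, which inhibits lactate dehydrogenase, and 10 mM L-sodium lactate. The oxamate culture received 50 mM sodium oxamate alone, and the control culture had standard medium, each for 48 hours. The series asked how lactylation of histone H3, a mark made from lactate, relates to transcription, and neither of these was measured by the RNA values. There was 1 library of polyadenylated RNA per condition, no label tells how many cultures it stands for, and both additions were sodium salts that the control medium did not receive. The RNA is that of whole cultures, so fewer cells expressing a gene and less of its RNA per cell cannot be told apart. No difference below has a replicate check or a p-value, and "higher" and "lower" compare libraries.

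The values are normalized counts as the authors deposited them, and the depth in reads is unknown. They summed over genes to 8171633 in oxamate+lactate, 8821115 in oxamate and 8220199 in control. Of 14 markers of T-lineage cells, 13 had a row, with a summed level of 19090 normalized counts in oxamate+lactate, 21055 in oxamate and 17572 in control, while 3 of 16 markers of other cell types had a row and none of those exceeded 76. Ratios are given as log2 of (normalized count + 1). The median ratio of the 12292 genes was 0.08 for oxamate against control, -0.09 for oxamate+lactate against oxamate and -0.01 for oxamate+lactate against control. With the columns scaled to equal sums these medians were -0.02, 0.02 and 0.00 in the same order of comparisons, so small ratios below depend on the scaling. ERCC spike-in RNAs, added after extraction, describe the technical spread. The 6 that averaged 1000 or more had ratios from -0.08 to 0.10 for oxamate against control, from -0.11 to 0.02 for oxamate+lactate against oxamate and from -0.11 to -0.01 for oxamate+lactate against control. The 11 that averaged 30 to 300 spanned -0.42 to 0.29, -0.39 to 0.23 and -0.39 to 0.39 in that order of comparisons. They do not measure the spread between cultures, which is not known here.

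**Figure D1:**
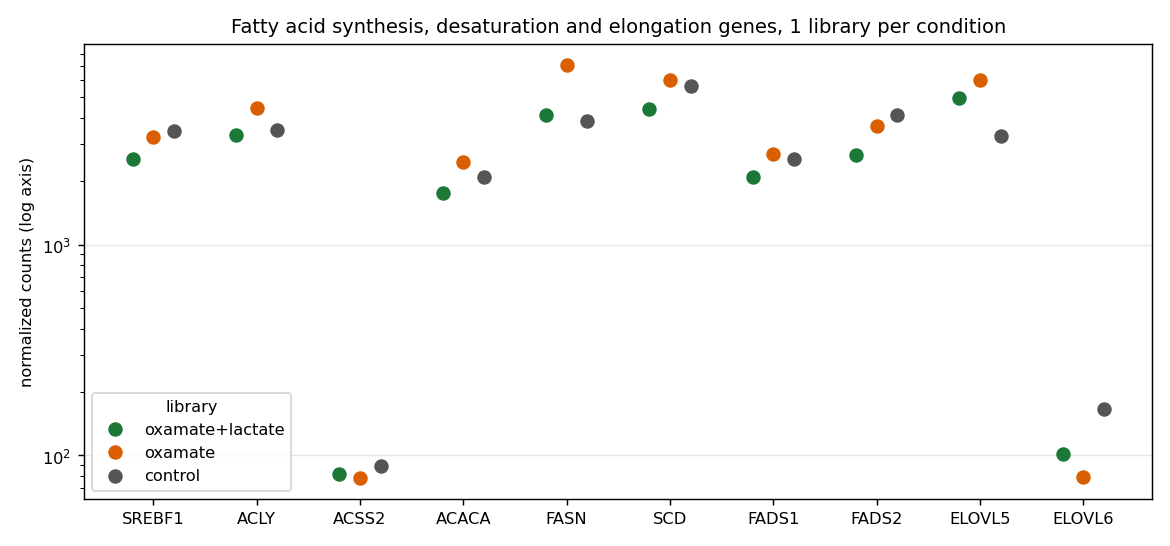
Normalized counts (log axis) of the 10 genes in the oxamate+lactate, oxamate and control libraries, 1 point per library. FASN and ELOVL5 were highest in oxamate, at 7130 and 6049, and ELOVL6 was highest in control, at 167.

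Of the 10 genes, 6 were highest in oxamate and 4 (SREBF1, ACSS2, FADS2 and ELOVL6) in control, and none was highest in oxamate+lactate. The 10 genes together held 25991 normalized counts in oxamate+lactate, 35829 in oxamate and 28735 in control, which is 0.318% of the gene sum in oxamate+lactate, 0.406% in oxamate and 0.350% in control. FASN and ELOVL5 carried the difference between oxamate and control. Without them, a choice made after their values were seen, the other 8 genes held 0.207% of the gene sum in oxamate+lactate, 0.257% in oxamate and 0.263% in control. The genes did not move as a block between oxamate and control, where their median ratio of 0.09 lay close to the 0.08 of all genes. Between oxamate+lactate and oxamate their median ratio was -0.40, against -0.09 for all genes, with 8 of 10 members under it. Between oxamate+lactate and control the median was -0.26, against -0.01, again with 8 of 10 members under it. The oxamate+lactate library enters both comparisons with low medians, -0.40 and -0.26. The oxamate library enters the comparisons with medians of 0.09 and -0.40, and the control library both comparisons with control. These ratios are therefore not independent of each other.

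FASN, ELOVL5, ELOVL6 and FADS2 passed 1.5-fold in at least 1 comparison, and the other members in none. Against control, 2 members were at least 1.5-fold higher in oxamate (FASN and ELOVL5), a distance that 7.48% of the 12292 genes reached, and 1 was at least 1.5-fold lower (ELOVL6), as were 3.98% of all genes. ELOVL6 was also past 2-fold lower, where 0.879% of genes lay. In oxamate+lactate against oxamate, no member was 1.5-fold higher (0.252% of all genes were) and 1 was 1.5-fold lower (FASN; 0.903% of all genes). In oxamate+lactate against control, ELOVL5 was 1.5-fold higher (2.99% of all genes), and FADS2 and ELOVL6 were 1.5-fold lower (3.07% of all genes). Taken relative to the all-gene median, the split of all genes for oxamate against control was 634 higher and 655 lower in place of 920 and 489. The members past 1.5-fold in that comparison were still 2 higher and 1 lower.

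**Figure D2:**
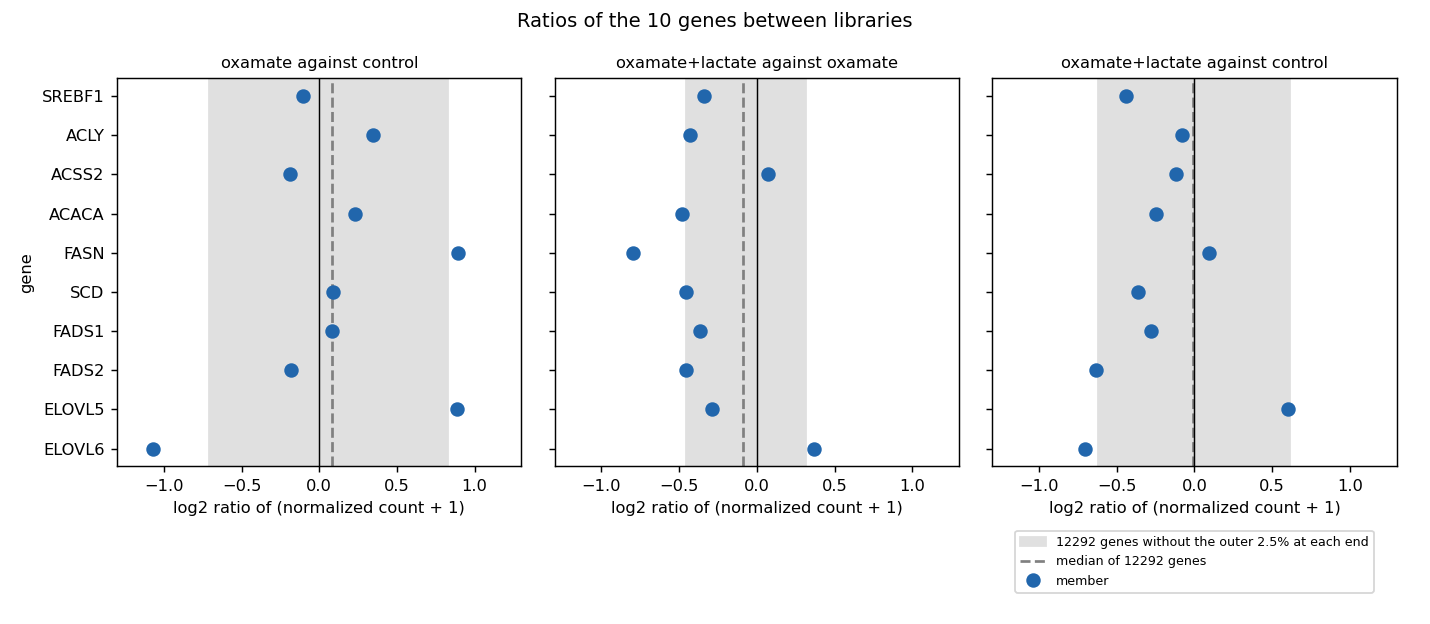
Log2 ratios of the 10 genes (points) in the 3 comparisons, with the range of 12292 genes without the outer 2.5% at each end (grey band) and their median (dashed line). In oxamate+lactate against oxamate, 8 points lie to the left of the dashed line, FASN farthest at -0.80, and ELOVL6 lies to the right at 0.36.

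Levels were compared between genes only per kilobase of exon sequence, using merged exons of GENCODE 29. By this measure ELOVL5 averaged 1248 normalized counts per kilobase over the libraries, SCD 998, ACLY 721, FASN 536, SREBF1 384, FADS2 315, FADS1 238, ACACA 161, ELOVL6 15.9 and ACSS2 15.4. The ranges over the 3 libraries overlapped between all neighbours in this order except at 2 places. FADS1, with 204 to 262 per kilobase, lay wholly above ACACA, with 135 to 188, and ACACA lay wholly above ELOVL6, with 10.8 to 22.9. ACSS2 and ELOVL6 were the weakly expressed members. By mean normalized count, without regard to length, 10.1% of genes lay below ACSS2 and 18.5% below ELOVL6, whereas the other 8 members were among the most abundant genes, with ACACA, at a mean of 2097, the lowest of them.

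SREBF1, the regulator, was lowest with lactate. It had 2554 in oxamate+lactate, 3234 in oxamate and 3472 in control, in normalized counts. The log2 ratio was -0.10 for oxamate against control, -0.34 for oxamate+lactate against oxamate and -0.44 for oxamate+lactate against control, where 6.31% of genes had a lower ratio. The gene on chromosome 17 shares 556 of its 8030 exon bases with RAI1 on the opposite strand. Because strand is not marked by the kit, reads there cannot be assigned, and RAI1 had 1175 in oxamate+lactate, 1491 in oxamate and 1100 in control. SREBF2, which encodes the sterol-directed relative and was added after its values were seen, had 1827 in oxamate+lactate, 2226 in oxamate and 2325 in control. Its ratio was -0.06 for oxamate against control, -0.28 for oxamate+lactate against oxamate and -0.35 for oxamate+lactate against control. The ratio of SREBF1 to SREBF2 counts was 1.4 in oxamate+lactate, 1.45 in oxamate and 1.49 in control, so the pair kept nearly the same proportion.

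Of the enzymes that supply acetyl-CoA, ACLY had 3314 normalized counts in oxamate+lactate, 4466 in oxamate and 3511 in control. It was higher in oxamate than in control (0.35, above the range of the abundant ERCC RNAs), lower in oxamate+lactate than in oxamate (-0.43) and within the ERCC range in oxamate+lactate against control (-0.08). ACSS2 had 82 in oxamate+lactate, 78 in oxamate and 89 in control. Its ratios (-0.19 for oxamate against control, 0.07 for oxamate+lactate against oxamate and -0.12 for oxamate+lactate against control) were all inside the range of ERCC RNAs of like level, so no difference was detectable for the acetate-using enzyme at this level.

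The committed steps are catalysed by ACACA and FASN. ACACA had 1754 normalized counts in oxamate+lactate, 2451 in oxamate and 2086 in control. It was highest in oxamate and lowest in oxamate+lactate, and its ratio was 0.23 for oxamate against control, -0.48 for oxamate+lactate against oxamate and -0.25 for oxamate+lactate against control. FASN had 4098 in oxamate+lactate, 7130 in oxamate and 3836 in control. The oxamate library stood apart, 1.86-fold above control (0.89; 98.1% of genes had a lower ratio), while oxamate+lactate lay 1.74-fold below oxamate (-0.80; 0.122% of genes had a lower ratio). Oxamate+lactate against control was near 0 (0.10), though above the range of the abundant ERCC RNAs (-0.11 to -0.01). This ratio turned to -0.05 when a trend on GC content and length of the transcript was taken out. The ratios followed GC content across 11204 genes (Spearman correlation 0.31 for oxamate against control and -0.23 for oxamate+lactate against oxamate, a description over genes of the same libraries). The longest FASN transcript has 65.3% GC, and without that trend the ratio of oxamate against control was 0.64, still past 1.5-fold.

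Ratios of counts within a library, compared only between libraries, are free of scaling. FASN counts per ACACA count were 2.34 in oxamate+lactate, 2.91 in oxamate and 1.84 in control. The proportion was thus shifted toward the synthase in both treated libraries, relative to control. FASN per SREBF1 was 1.6 in oxamate+lactate, 2.2 in oxamate and 1.1 in control. SCD per SREBF1 was 1.72 in oxamate+lactate, 1.86 in oxamate and 1.63 in control. FASN was thus higher relative to SREBF1 in both treated libraries than in control, and SCD kept closer to SREBF1.

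**Figure D3:**
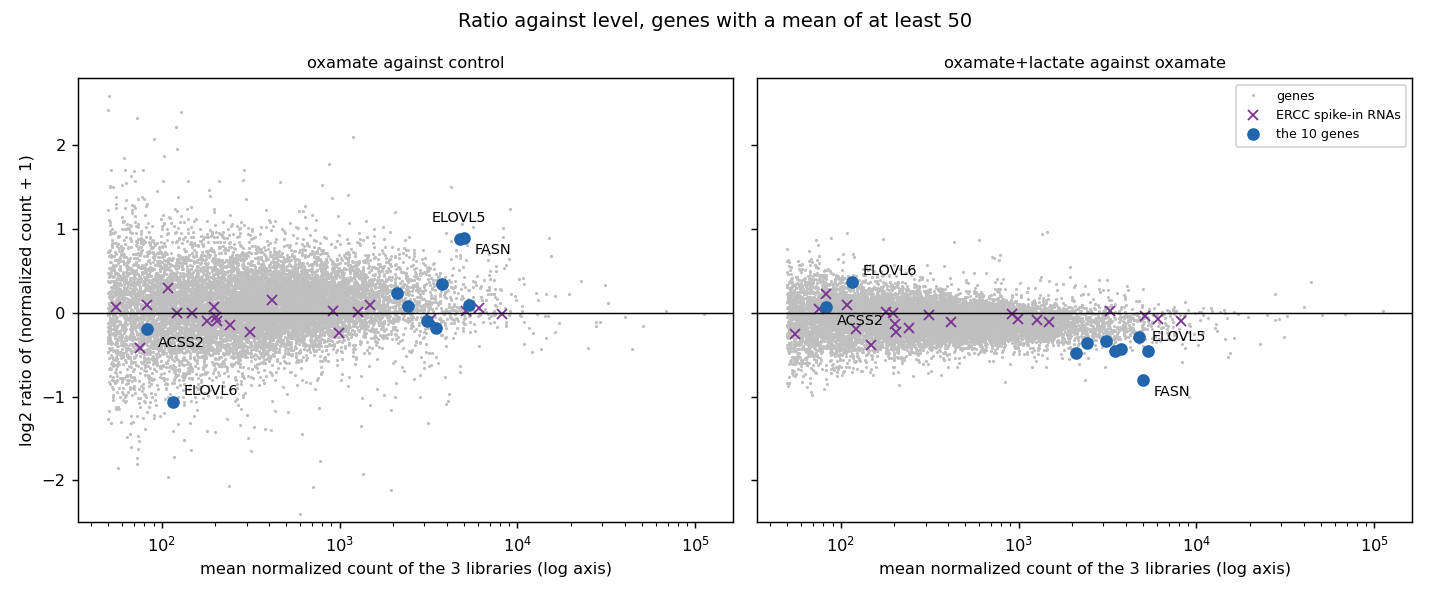
Log2 ratio (vertical axis) against mean normalized count of the 3 libraries (log axis) for 12292 genes (grey), ERCC RNAs averaging 50 or more (crosses) and the 10 genes (blue). In oxamate+lactate against oxamate the 8 abundant members lie below the crosses of like level, and FASN at -0.80 lies lowest of them. Among these 8, the share of all genes with a lower ratio ran from 0.122% for FASN to 12.1% for ELOVL5.

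Among the members, the desaturases SCD, FADS1 and FADS2 were lower in oxamate+lactate than in either other library. SCD5, another stearoyl-CoA desaturase outside the members, was not, with 477 in oxamate+lactate, 469 in oxamate and 593 in control. SCD, a stearoyl-CoA desaturase that makes oleate and palmitoleate, had 4390 normalized counts in oxamate+lactate, 6017 in oxamate and 5650 in control. The ratio of SCD was 0.09 for oxamate against control, -0.45 for oxamate+lactate against oxamate and -0.36 for oxamate+lactate against control. FADS1, the delta-5 desaturase of polyunsaturated fatty acids, had 2086 in oxamate+lactate, 2685 in oxamate and 2532 in control. Its ratio was 0.08 for oxamate against control, -0.36 for oxamate+lactate against oxamate and -0.28 for oxamate+lactate against control. For oxamate against control, both lay inside the ERCC range and changed sign, to -0.01 for SCD and -0.02 for FADS1, with the columns scaled to equal sums. FADS2, the delta-6 desaturase that starts the polyunsaturated route, had 2656 in oxamate+lactate, 3640 in oxamate and 4122 in control, and so was below control in both treated libraries. Its ratio was -0.18 for oxamate against control, -0.45 for oxamate+lactate against oxamate and -0.63 for oxamate+lactate against control, and oxamate+lactate lay 1.55-fold below control, just past the 1.5-fold line. With columns scaled to equal ERCC sums this ratio was -0.57, just short of it.

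FADS1 and FADS2 lie head to head on chromosome 11, and in GENCODE 29 they share 490 exon bases, 4.79% of the FADS1 exons and 4.44% of the FADS2 exons, on opposite strands. Reads from those bases cannot be assigned without strand. FADS2 counts per FADS1 count were 1.27 in oxamate+lactate, 1.36 in oxamate and 1.63 in control. The pair was therefore shifted toward FADS1 in both treated libraries. FADS3, a further gene of the family, differed little, with 296 in oxamate+lactate, 286 in oxamate and 297 in control.

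The elongases differed from control in opposite directions in both treated libraries. ELOVL5, which lengthens polyunsaturated fatty acids between the delta-6 and delta-5 steps, had 4955 normalized counts in oxamate+lactate, 6049 in oxamate and 3270 in control. It was 1.85-fold higher in oxamate than in control (0.89; 98.1% of genes had a lower ratio) and 1.52-fold higher in oxamate+lactate than in control (0.60, just past the 1.5-fold line). Between the treated libraries its ratio was -0.29, the smallest in size among the 8 abundant members. ELOVL6, which lengthens palmitate to stearate, had 102 in oxamate+lactate, 79 in oxamate and 167 in control. It was 2.10-fold lower in oxamate than in control (-1.07; 0.602% of genes had a lower ratio) and 1.63-fold lower in oxamate+lactate than in control (-0.71). In oxamate+lactate against oxamate ELOVL6 was the one member above the ERCC range (0.36; 98.3% of genes had a lower ratio). All 3 ELOVL6 ratios lay outside the range of ERCC RNAs of like level, although at about 100 normalized counts a few reads weigh more than in the other members.

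ELOVL5 counts per ELOVL6 count were 48.6 in oxamate+lactate, 76.6 in oxamate and 19.6 in control, the widest shift within the group among the ratios computed. ELOVL5 per FADS2 was 1.87 in oxamate+lactate, 1.66 in oxamate and 0.793 in control. ELOVL5 per FADS1 was 2.38 in oxamate+lactate, 2.25 in oxamate and 1.29 in control. ELOVL5 was thus higher relative to both desaturases in both treated libraries than in control. ELOVL2, a further elongase of polyunsaturated fatty acids, differed in the other direction, with 167 in oxamate+lactate, 171 in oxamate and 233 in control, and ELOVL2 per FADS1 was 0.0801 in oxamate+lactate, 0.0637 in oxamate and 0.092 in control.

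Promoter sequences are shown for the elongases, which differed in opposite directions, and for SCD, which stands for the members that were close to control in oxamate and lower in oxamate+lactate. They are the 250 bases before the annotated start, from RefSeq on GRCh38.p14, 5' to 3' on the strand of the gene: chr6:53348951-53349200 (minus strand) for ELOVL5, chr4:110198616-110198865 (minus strand) for ELOVL6 and chr10:100346983-100347232 (plus strand) for SCD. Capitals mark, on either strand, the sterol regulatory element TCACNCCAC, the E-box CACGTG, the CCAAT box (letters CCAAT) and the GC box GGGCGG, motifs known from promoters of lipid genes.
ELOVL5: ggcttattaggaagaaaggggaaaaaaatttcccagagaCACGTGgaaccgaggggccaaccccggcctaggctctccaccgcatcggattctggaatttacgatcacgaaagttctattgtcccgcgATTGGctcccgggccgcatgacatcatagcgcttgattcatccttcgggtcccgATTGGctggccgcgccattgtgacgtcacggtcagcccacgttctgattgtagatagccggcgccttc
ELOVL6: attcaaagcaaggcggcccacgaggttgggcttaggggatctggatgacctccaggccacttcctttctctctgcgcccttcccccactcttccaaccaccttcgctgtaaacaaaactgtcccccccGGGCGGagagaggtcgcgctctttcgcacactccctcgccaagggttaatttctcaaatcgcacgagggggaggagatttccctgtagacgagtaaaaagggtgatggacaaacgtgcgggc
SCD: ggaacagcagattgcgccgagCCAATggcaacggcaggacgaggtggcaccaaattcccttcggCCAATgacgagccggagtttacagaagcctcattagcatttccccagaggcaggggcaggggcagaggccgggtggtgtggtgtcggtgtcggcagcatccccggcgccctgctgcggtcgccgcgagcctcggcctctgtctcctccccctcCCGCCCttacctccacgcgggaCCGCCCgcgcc

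In these windows, ELOVL5 held an E-box that begins 211 bases before the start and CCAAT boxes that begin 122 and 68 bases before it. ELOVL6 held a single GC box at 122 bases, and SCD held CCAAT boxes at 229 and 186 bases and GC boxes at 33 and 11 bases. Windows were found for 9 of the 10 members (all but FASN), 14 windows in all, and the counts that follow are of those 9. None held TCACNCCAC, which 0.882% of 34788 distinct windows of all genes held, so its absence from 14 windows says little. The E-box was found in 1 member, against 6.31% of windows. The CCAAT box was found in 5 members and 7 of 14 windows (32.0% of all windows), and the GC box in 8 members and 11 of 14 windows (42.6% of all windows). A match is a run of letters and not a measured site, and windows of 1 gene overlap for ACLY and FADS2.

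Other genes of lipid metabolism were taken from 8 lists of 137 genes, of which 118 were over the floor. Among 19 genes that control SREBP proteins, INSIG1, which holds the SREBP precursors in the endoplasmic reticulum when sterols are plentiful, followed the pattern of FASN, with 1849 in oxamate+lactate, 3228 in oxamate and 1999 in control. Its ratio was 0.69 for oxamate against control, -0.80 for oxamate+lactate against oxamate and -0.11 for oxamate+lactate against control. INSIG1 counts per INSIG2 count were 9.89 in oxamate+lactate, 18.6 in oxamate and 11.3 in control. The list as a whole did not follow, with medians of 0.05 for oxamate against control and -0.10 for oxamate+lactate against oxamate, close to those of all genes. MBTPS2, the site-2 protease that cleaves SREBP precursors, was lower in both treated libraries, at 124 in oxamate+lactate, 118 in oxamate and 190 in control (it shares exon bases with YY2). RXRA, a partner of the liver X receptors, was higher in both, at 79 in oxamate+lactate, 91 in oxamate and 44 in control.

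Sterol genes were the list with the median nearest to that of the members in oxamate+lactate against oxamate. For this comparison, 21 genes of sterol synthesis and uptake had a median of -0.37 and 19 of them were under that of all genes. Past 1.5-fold lower were 5 of the 21 genes (0.903% of all genes were), among them HMGCS1, LSS and DHCR7. HMGCS1, the synthase of the mevalonate route, had 672 in oxamate+lactate, 1029 in oxamate and 998 in control (ratio 0.04 for oxamate against control, -0.61 for oxamate+lactate against oxamate and -0.57 for oxamate+lactate against control), close to control in oxamate and lower with lactate, as SCD was. LSS and DHCR7, enzymes of the later steps, had ratios of -0.61 and -0.65 for oxamate+lactate against oxamate. TM7SF2, a sterol reductase, ran the other way, at 194 in oxamate+lactate, 152 in oxamate and 229 in control (0.35 for oxamate+lactate against oxamate). For oxamate against control the list had a median of 0.19. In that comparison 4 of the 21 genes were at least 1.5-fold higher (7.48% of all genes were), among them PMVK (0.60), NSDHL (0.66) and DHCR7 (0.63). TM7SF2 was 1.5-fold lower (-0.59), as were 3.98% of all genes.

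Lists of lipid uptake and assembly lay closer to all genes than the members and the sterol list did in oxamate+lactate against oxamate. Genes of fatty acid activation, uptake and binding had a median of 0.23 for oxamate against control and -0.21 for oxamate+lactate against oxamate, with 9 of 10 under the all-gene median in the second comparison. The transporter SLC27A4 was 1.5-fold higher in oxamate than in control (7.48% of all genes were), at 590 in oxamate+lactate, 721 in oxamate and 472 in control. The 17 glycerolipid genes had a median of 0.21 for oxamate against control and -0.18 for oxamate+lactate against oxamate. In oxamate against control, 2 of these 17 were 1.5-fold higher, as were 7.48% of all genes. LPCAT1, a lysophospholipid acyltransferase, had 1082 in oxamate+lactate, 1502 in oxamate and 984 in control. DGAT1, of triglyceride synthesis, had 716 in oxamate+lactate, 874 in oxamate and 579 in control. No gene of either list was 1.5-fold lower in oxamate+lactate than in oxamate, where 0.903% of all genes were.

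Fatty acid oxidation lay below all genes in oxamate against control and above them in oxamate+lactate against oxamate. Its 20 genes had a median of -0.15 for oxamate against control and 0.04 for oxamate+lactate against oxamate, with 15 of 20 under the all-gene median in the first and 15 of 20 over it in the second. For oxamate+lactate against control its median was -0.13, with 16 of 20 under that of all genes, the same side as the members. Neither in oxamate against control nor in oxamate+lactate against oxamate was a gene of this list 1.5-fold different. Of all genes, 7.48% were that far higher and 3.98% lower in the first comparison, and 0.252% and 0.903% in the second. SLC25A20, the carnitine carrier of the mitochondrion, was 1.5-fold higher in oxamate+lactate than in control (2.99% of all genes were). It had 208 in oxamate+lactate, 169 in oxamate and 135 in control. The mitochondrial route of fatty acid synthesis makes the precursor of lipoic acid. For oxamate against control, 3 of its 9 genes were lower by 1.5-fold or more, as were 3.98% of all genes. LIAS, lipoic acid synthase, had 119 in oxamate+lactate, 104 in oxamate and 175 in control. MECR, the reductase of that route, had 205 in oxamate+lactate, 170 in oxamate and 264 in control. HSD17B8, a subunit of another reductase there, had 90 in oxamate+lactate, 73 in oxamate and 110 in control. Its ratio for oxamate against control, -0.58, lay at the 1.5-fold line and not beyond it. For that comparison the median of the list was -0.03 and its highest ratio was that of MCAT, at 0.37.

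The remaining lists had no gene past 1.5-fold in the 3 comparisons, a distance that at most 7.48% of all genes reached in any direction. Among 16 other desaturases, elongases and their partner enzymes, the highest ratio of oxamate+lactate against oxamate was that of ELOVL4 and the lowest that of ELOVL1, both elongases of very long chains. ELOVL4 had 558 in oxamate+lactate, 504 in oxamate and 412 in control, and ELOVL1 had 240 in oxamate+lactate, 290 in oxamate and 221 in control. The median of the list in that comparison was -0.03. Among 6 genes of precursor supply the median for oxamate+lactate against oxamate was -0.19, with MLYCD, which breaks down malonyl-CoA, lowest and ACACB, the carboxylase at the mitochondrion, highest. MLYCD had 104 in oxamate+lactate, 141 in oxamate and 105 in control, and ACACB had 227 in oxamate+lactate, 231 in oxamate and 332 in control.

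**Figure D4:**
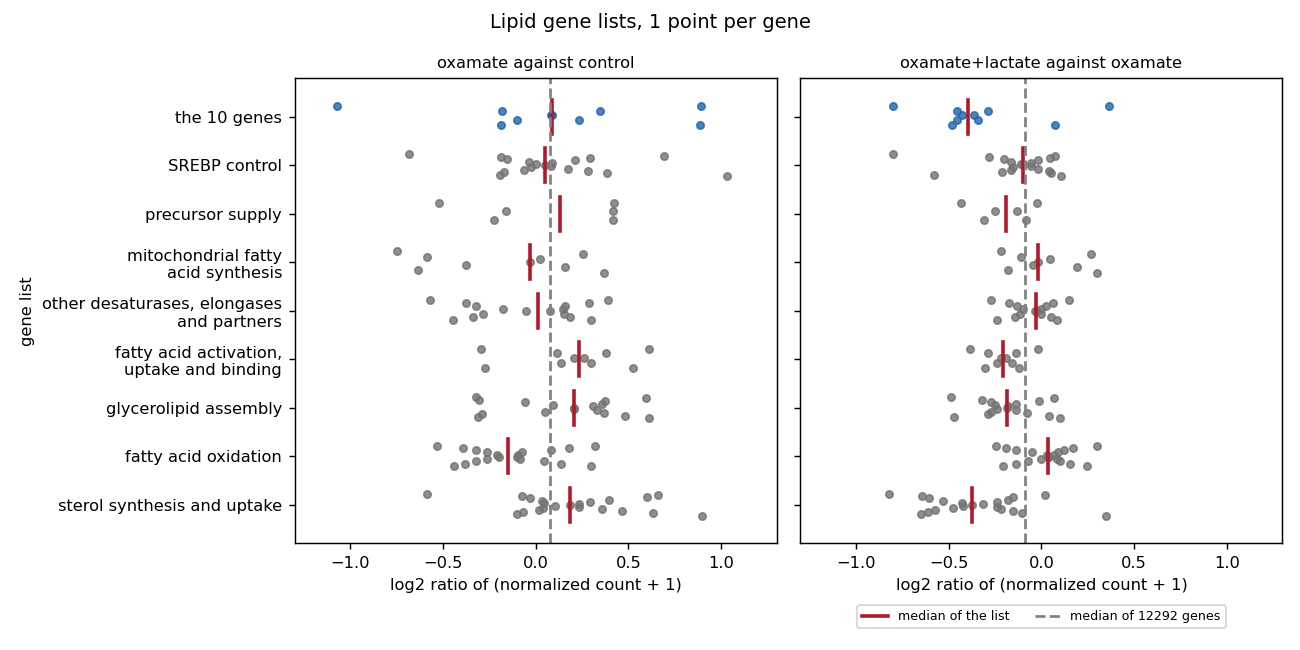
Log2 ratios of single genes (points) in the 10 genes and 8 other lipid lists, with the median of each list (red) and of 12292 genes (dashed). In oxamate+lactate against oxamate the medians of the 10 genes (-0.40) and of the sterol list (-0.37) lie left of the dashed line, and that of fatty acid oxidation (0.04) lies right of it.

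The median shape of the members was not particular to them, and not every member followed it. The median of their log2 values, each centred over the 3 libraries, was -0.22 in oxamate+lactate, 0.17 in oxamate and 0.08 in control. Outside the lists, the 5 genes averaging 500 or more that lay nearest to it by Euclidean distance over the 3 libraries were PPIH, BCL9, MAVS, TWISTNB and TAGLN2, at distances of 0.03 to 0.06. PPIH, the nearest, had 420 in oxamate+lactate, 564 in oxamate and 533 in control, and TAGLN2, the most abundant, had 1931 in oxamate+lactate, 2449 in oxamate and 2434 in control. Of 4388 such genes, 4354 lay within 0.83, the distance of the farthest member, and 911 within 0.22, the median distance of the members themselves. Both counts take in genes that differed less between libraries than this shape does. FADS1 (0.02) and SCD (0.05) were the members nearest to the median shape, and FASN (0.57), ELOVL5 (0.70) and ELOVL6 (0.83) the farthest from it.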

How the data were processed

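RNA of Jurkat cells was sequenced, 1 library per condition, grouped by the treatment label. The authors deposited 1 table of normalized counts with 17365 rows, 36 of them ERCC RNAs. Since every value is a whole number, the authors' values were taken as a rounded score, and no count model was fitted. The submitters' processing notes name the build hg19 and the tools STAR 2.7.1a, HTSeq 0.11.2 and FastQC 0.11.9, and the sources used here give neither the normalization nor the annotation nor the depth. Per the labels' protocols, strand was not marked by the kit.

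Ratios were computed as log2 of (value + 1), with no test, over genes with a mean of at least 50, and genes at least 1.5-fold apart were counted. The members and lists were chosen with earlier results of these data known. The text names every member, the list genes past 1.5-fold in any comparison or, failing these, the extremes for oxamate+lactate against oxamate, and the 5 genes of most similar pattern. SREBF2, INSIG2, SCD5, FADS3, ELOVL2, RAI1 and MCAT were added after their values were seen, and not every list gene past 1.5-fold is reported here. Of the list genes, 5 were found under an older symbol. Exon lengths, GC content and overlaps came from GENCODE 29, on another build than hg19, so no coordinates of it are given, and promoters from RefSeq (GRCh38.p14). Python 3.11.15, pandas 2.3.3 and numpy 2.4.6 were used, and the computation was tested on simulated data. Alternatives were other scalings, pseudocounts (10 and none), floors (200 and none) and removal of the GC and length trend.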

Additional observations from a re-analysis of the deposited data

How the results depend on the processing

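With 1 library per condition no replicate could be left out, and no paired analysis was possible because the conditions share no replicate numbers beyond a single library each. Over 8 alternatives, 69 of 72 medians and counts and 231 of 234 ratios of single members stayed within a tolerance. For ratios it was the SD of 18 ERCC RNAs averaging 100 or more, and for counts a change of up to 1.5 times. That SD was 0.13 for oxamate against control, 0.11 for oxamate+lactate against oxamate and 0.19 for oxamate+lactate against control. For the 6 averaging 1000 or more it was 0.06, 0.05 and 0.04, so the tolerance was wide for abundant members. Changing the floor could not move a single member's ratio. Dropping it added no member, so the medians and counts there were also fixed beforehand. With a floor of 200, which leaves out ELOVL6 and ACSS2, the members at least 1.5-fold lower numbered 0 for oxamate against control and 1 for oxamate+lactate against control. With equal ERCC sums the count for oxamate+lactate against control was also 1, since FADS2 came to -0.57. Removing the GC and length trend moved the ratio of oxamate against control to -0.29 for SREBF1, 0.64 for FASN and -0.32 for FADS2. With equal sums over genes, the median of the 10 members for oxamate against control was -0.01. FASN and ELOVL5 were at least 1.5-fold higher in oxamate than in control in all 9 settings. FASN was at least 1.5-fold lower in oxamate+lactate than in oxamate in all 9. The floor settings among the 9 could not change these ratios. The unknown depth and the lack of replicates limit every ratio, most of all those of ACSS2 and ELOVL6.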

Other observations

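The following genes were chosen after their values were seen. HSD17B12, the ketoacyl reductase that serves every elongase, had 522 in oxamate+lactate, 522 in oxamate and 774 in control (normalized counts), below control by the same amount in both treated libraries (-0.57). CPT1A, the entry enzyme of mitochondrial fatty acid oxidation, had 728 in oxamate+lactate, 708 in oxamate and 929 in control, lower than control in both treated libraries. NR1H3, which encodes a liver X receptor that activates SREBF1 in other cells, had 100 in oxamate+lactate, 150 in oxamate and 133 in control, with a ratio of -0.58 for oxamate+lactate against oxamate. SLC25A1, the mitochondrial citrate carrier that feeds ACLY, had 553 in oxamate+lactate, 659 in oxamate and 737 in control, the order of libraries seen for FADS2. Under the floor of a mean of 50, the lipid droplet gene PLIN2 had 4 in oxamate+lactate, 9 in oxamate and 18 in control, too few for a ratio to be read.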
